A study of Mus musculus with 6 samples.

Results

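The 30 genes examined cover cholesterol synthesis, its control, the handling of sterols inside the cell, and export under the liver X receptor (LXR). They were listed by symbol, and a gene was measured by the array row whose annotation names that gene alone, taking the row with the highest mean where a gene had more than 1. This gave a row for 26 of the 30 genes, out of 22180 genes named in this way on the array. Of these 26, 16 belong to synthesis, 4 to its control by sterol regulatory element-binding proteins (SREBP), 2 to transport and oxysterols, and 4 to LXR and efflux. Expression of Acat2, Soat1 and Nr1h2 was not analysed here, and Idi1 was given no value because its row also names a second gene.

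RNA came from BV-2 cells, a mouse microglial line immortalised by a retrovirus carrying raf and myc oncogenes, so all 6 arrays share 1 immortalised line. The 3 control arrays are of resting cells, with no collection time given in the sources used here. The other 3 are of cells given lipopolysaccharide (LPS) of Escherichia coli O111:B4, which is sensed through Toll-like receptor 4, at 1 µg/mL for 24 h. All cells were plated in medium with less serum, a source of lipoprotein cholesterol, than their growth medium. Labels number the replicates 1 to 3 without saying whether they were separate cultures, and the p-values below speak only to how far these arrays varied, possibly for technical reasons.

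Cells build cholesterol from acetyl-CoA by way of mevalonate and squalene. When sterols in the endoplasmic reticulum are low, the escort protein SCAP carries SREBP to the Golgi, where cleavage frees a transcription factor that switches on nearly every gene of the pathway. When sterols are plentiful, INSIG proteins hold SCAP back, and oxysterols activate LXR, which switches on the exporters ABCA1 and ABCG1. Macrophages, to which microglia belong, take in much cholesterol with what they engulf and are known to alter both arms during inflammation.

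The promoters of the synthesis genes commonly held a CCAAT box, while the sterol and LXR elements, as searched here, were matched in 1 gene each. Promoters were read from a RefSeq promoter table (GRCm38.p6), as the 250 bases before each annotated start, which held 25 of the 30 genes. The sterol regulatory element was searched as TCACNCCAC, the box of the SREBP partner NF-Y as CCAAT, and the LXR element as the direct repeat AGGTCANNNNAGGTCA with up to 2 of its 12 fixed letters different. Both strands were searched, so a match can appear as its reverse complement. A CCAAT box lay in the window of 14 of 15 synthesis genes, all but Acat2, and in 37.5% of all 27025 genes of the table, counting a gene with several starts once. Of the other 10 genes on the list 5 had one. The sterol element was matched in Hmgcs1 alone of the 25, and in 1.22% of all genes, while the LXR repeat was matched in Dhcr7 alone, against 2.96%. A match is a run of letters and not a measured site, and the matches did not overlap in the windows printed here. The sterol element was searched with no fixed letter different. Elements that differ further from the searched patterns, or lie outside the 250 bases, would be missed, so a gene without a match may still have one. Shown are 3 synthesis genes, Hmgcs1 with the sterol element and Cyp51 and Msmo1 of the late steps, and the 3 genes whose LPS arrays all lay above all control arrays (Mvk, Insig1 and Abca1). Capitals mark every match, and all are written 5′ to 3′ on the gene's own strand.
Hmgcs1, chr13:119690101-119690350, plus strand: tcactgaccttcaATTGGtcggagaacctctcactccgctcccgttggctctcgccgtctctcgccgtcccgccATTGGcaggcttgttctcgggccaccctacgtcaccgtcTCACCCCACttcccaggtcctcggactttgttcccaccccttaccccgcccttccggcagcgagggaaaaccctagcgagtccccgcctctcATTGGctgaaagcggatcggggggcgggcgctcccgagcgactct
Mvk, chr5:114444019-114444268, plus strand: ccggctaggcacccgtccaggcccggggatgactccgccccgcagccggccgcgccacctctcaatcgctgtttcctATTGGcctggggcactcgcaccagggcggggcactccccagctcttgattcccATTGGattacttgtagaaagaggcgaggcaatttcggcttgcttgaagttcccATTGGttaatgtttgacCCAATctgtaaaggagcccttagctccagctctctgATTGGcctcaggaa
Cyp51, chr5:4104698-4104947, minus strand: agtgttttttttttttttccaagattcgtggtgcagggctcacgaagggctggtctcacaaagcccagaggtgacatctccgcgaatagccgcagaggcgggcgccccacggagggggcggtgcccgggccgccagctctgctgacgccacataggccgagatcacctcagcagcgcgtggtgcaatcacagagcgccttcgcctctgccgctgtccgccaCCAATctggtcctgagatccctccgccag
Msmo1, chr8:64733579-64733828, minus strand: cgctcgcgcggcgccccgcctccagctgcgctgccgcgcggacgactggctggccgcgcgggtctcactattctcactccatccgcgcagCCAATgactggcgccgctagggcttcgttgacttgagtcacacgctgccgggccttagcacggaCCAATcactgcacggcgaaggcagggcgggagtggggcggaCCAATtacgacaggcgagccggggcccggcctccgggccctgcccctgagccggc
Insig1, chr5:28071162-28071411, plus strand: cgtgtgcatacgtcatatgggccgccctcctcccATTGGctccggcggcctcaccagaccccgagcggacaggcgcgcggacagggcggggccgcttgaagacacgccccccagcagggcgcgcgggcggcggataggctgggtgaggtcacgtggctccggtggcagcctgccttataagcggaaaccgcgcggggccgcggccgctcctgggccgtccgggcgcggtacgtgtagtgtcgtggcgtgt
Abca1, chr4:53159896-53160145, minus strand: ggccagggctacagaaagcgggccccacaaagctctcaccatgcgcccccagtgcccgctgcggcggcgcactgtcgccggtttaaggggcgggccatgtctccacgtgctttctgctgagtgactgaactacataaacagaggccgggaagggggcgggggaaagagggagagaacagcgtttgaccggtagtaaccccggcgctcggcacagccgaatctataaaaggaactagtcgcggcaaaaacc
Hmgcs1 has 3 CCAAT boxes with the sterol element between them, Mvk 5 boxes, Msmo1 3, and Cyp51 and Insig1 1 each. The window of Abca1, the gene with the highest log2 fold change of the 26 in the deposited values, held no match to the 3 motifs as searched. An LXR repeat with more than 2 fixed letters different would have been missed, so this does not show that the window lacks such an element.

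The LPS cells responded, and the arrays showed microglia and macrophage markers, a list that does not tell microglia from other macrophages. Acod1, the enzyme that makes itaconate, had log2 levels between 3.44 and 4.48 in the controls and between 10.65 and 10.80 with LPS (log2 fold change 6.60, SE 0.29, limma adjusted p = 0.00123). For the cytokine gene Il1b the log2 difference, LPS minus control, was 5.43 with an SE of 0.39 (limma adjusted p = 0.00731). All 10 microglia and macrophage markers had a mean above 3.08, the 95th percentile of 1443 rows for olfactory, vomeronasal and taste receptors, which served as a guide to background. Cx3cr1 and Aif1, both defining markers, lay close to that guide, at control means of 3.75 and 3.91. Of 23 markers of neurons, astrocytes, oligodendrocytes, fibroblasts and lymphocytes with a row, 2 exceeded it, Rbfox3 and Col1a2, with means of at most 3.51 in either group. An array stood apart in each group. Control replicate 2 correlated less well with the other controls (Pearson's r of 0.960 and 0.959 across rows) than they did with each other (0.982), and LPS replicate 3 had 0.966 and 0.973 with the other LPS arrays, against 0.979. Results are therefore also given without both of these arrays. Both were picked by their deviation in these same data, so leaving them out tends to lower the spread. Adjusted p-values without them can therefore be too small.

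No cholesterol gene passed the test. Of the 26 genes, 0 were higher and 0 lower with LPS at an adjusted p under 0.05 (limma, adjusted over all 41345 rows), where 0.193% of all rows were called higher and 0% lower. Adjusted p-values ran from 0.538 to 0.999. At an unadjusted p under 0.05, 2 genes were higher, Mvk and Abca1, and 0 were lower, which is 7.69% of the 26 higher against 4.98% of all rows and 10.8% of the 14064 rows with a mean above 4, the range that holds 24 of the 26. Lower at that p were 1.4% of all rows and 1.44% of those with a mean above 4. Log2 fold changes lay between -0.25 for Stard4 and 0.56 for Abca1, with a median of 0.10, beside 0.03 over all rows and 0.14 over rows with a mean above 4. In a bulk measurement, fewer cells using a gene and less RNA per cell cannot be told apart.

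The intervals, from all 6 arrays, show how large a change could have been missed in genes above background. For 23 of the 26 genes, the 95% interval of the log2 fold change, which is not adjusted for the number of genes, lay within a 2-fold change in either direction. The 3 exceptions were Mvd, Abca1 and Mylip, whose upper bounds were 1.09, 1.03 and 1.10. Among the 23 is Ch25h, which lay below the guide to background, so its narrow interval bounds no change. Tm7sf2, with means of 3.62 in the controls and 3.85 with LPS, lay above that guide but close to it. The bounds also depend on the arrays used. Without control replicate 2 and LPS replicate 3, Abcg1 moved from -0.20 to -0.62 and Mvd from 0.48 to 0.11. Over all rows 78.4% had such an interval, and over rows with a mean above 4 it was 62.2%. The direction of the small changes depended on the scaling and on single arrays: 18 of 26 log2 fold changes were above 0 as deposited, 9 after quantile normalization, 10 without LPS replicate 3 and 8 without control replicate 2 and LPS replicate 3. Above 0 were 68.6% of rows with a mean above 4 as deposited, beside 69.2% of the 26 genes, and 47.6% without both arrays, beside 30.8% of the 26.

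**Figure D1:**
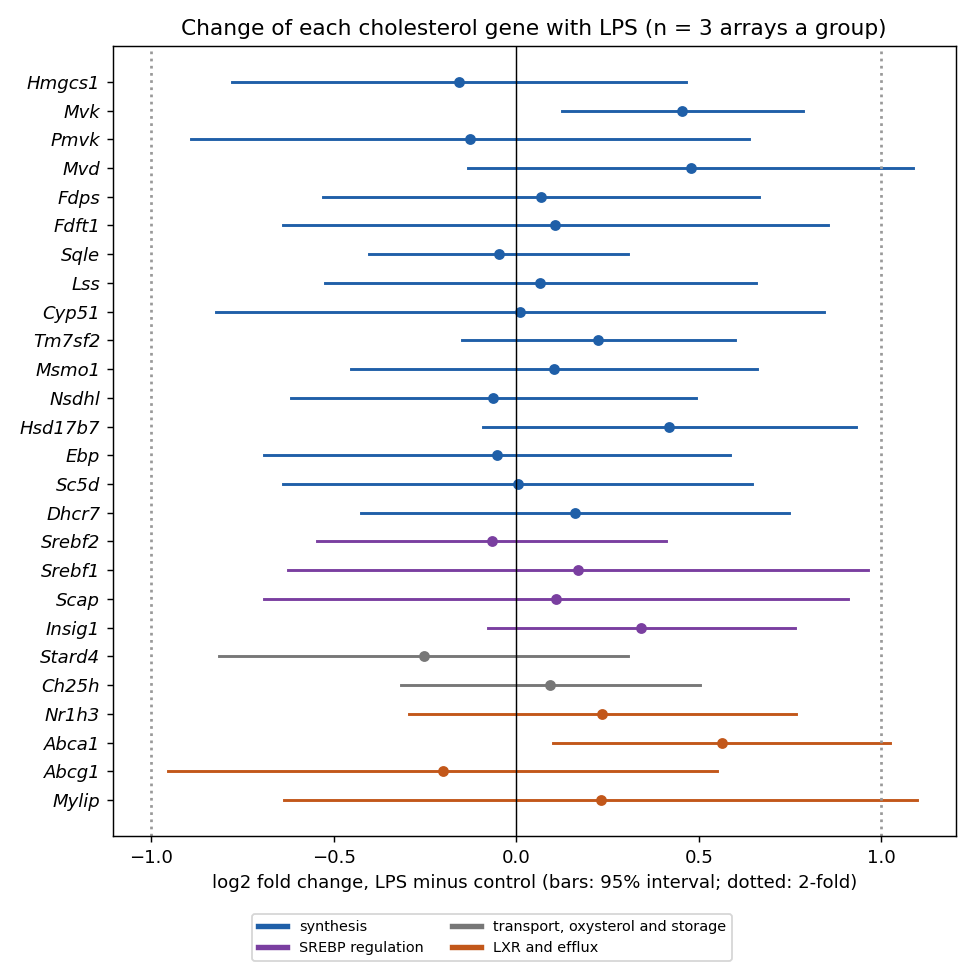
Log2 fold change of LPS over control for each of the 26 genes (points) with its 95% interval (bars), 3 arrays a group, coloured by role; dotted lines mark a 2-fold change. The intervals of Mvk and Abca1 do not reach 0, and those of Mvd, Abca1 and Mylip cross the upper dotted line.

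The first enzymes of the pathway, which lead from acetyl-CoA to squalene, showed 1 gene without overlap between the groups. Mvk, the kinase that puts the first phosphate on mevalonate, had log2 levels of 4.19, 4.40 and 4.19 in control replicates 1 to 3 and 4.66, 4.65 and 4.82 in LPS replicates 1 to 3. All LPS values were above all control values, at a log2 fold change of 0.45 (SE 0.14, 95% interval 0.12 to 0.78) or 1.37-fold, which did not pass over all rows (limma adjusted p = 0.538). Such a complete separation upward was seen in 3 of the 26 genes (11.5%), in 7.74% of all rows and in 14% of rows with a mean above 4. Downward it was seen in 0 of 26, in 3.48% and in 1.56%. Without control replicate 2 and LPS replicate 3 the log2 fold change of Mvk was 0.47 (limma adjusted p = 0.366).

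Hmgcs1, which condenses acetyl-CoA with acetoacetyl-CoA and carries the sterol element shown above, had log2 levels of 8.18, 7.57 and 8.55 in the controls and 7.76, 8.10 and 7.97 with LPS. The lowest and the highest of its 6 values were both controls, and the log2 fold change of -0.16 had an interval from -0.78 to 0.46. Mvd, the decarboxylase that makes isopentenyl diphosphate, had levels of 5.89, 5.19 and 6.10 in the controls and 6.12, 6.10 and 6.40 with LPS. Its groups overlapped narrowly and its log2 fold change was 0.48 (limma adjusted p = 0.90, SE 0.26), which became 0.11 without control replicate 2 and LPS replicate 3. Pmvk, the second mevalonate-phosphorylating kinase, had levels of 7.34, 6.07 and 6.94 in the controls and 6.51, 6.79 and 6.67 with LPS. Its LPS values all lay inside the range of the controls, at a log2 fold change of -0.13 (SE 0.32). Fdps, which joins isoprene units to farnesyl diphosphate, and Fdft1, the squalene synthase, had log2 fold changes of 0.07 and 0.11. In both of these genes control replicate 2 was the lowest of all 6 arrays, at 7.10 and 7.26.

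The later enzymes, which oxidise, close and trim squalene to cholesterol, numbered 10, and the groups overlapped in all 10. Sqle, the oxygenase that acts first on squalene and a point of control of the pathway, had the smallest SE of these, with levels of 8.68, 8.44 and 8.63 in the controls and 8.37, 8.55 and 8.68 with LPS. Its log2 fold change was -0.05 (SE 0.15), with an interval from -0.40 to 0.31. Hsd17b7, a ketosteroid reductase of the demethylation steps, had levels of 5.86, 6.43 and 5.88 in the controls and 6.25, 6.45 and 6.73 with LPS. Control replicate 2 lay among its LPS values, and the log2 fold change of 0.42 (limma adjusted p = 0.888, SE 0.21) was 0.48 without that array and LPS replicate 3 (adjusted p = 0.393).

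Cyp51, the lanosterol demethylase, had levels of 6.71, 7.53 and 6.84 in the controls and 6.59, 6.81 and 7.70 with LPS. A single array was high in each group, and the means of 7.02 ± 0.45 and 7.03 ± 0.59 (SD, n = 3) differed by 0.01. Msmo1, the methyl sterol oxidase that acts after Cyp51, went from 7.39, 7.67 and 7.49 to 7.34, 7.41 and 8.11, with the same 2 arrays high. Sc5d and Dhcr7, the desaturase and the reductase at the end of the pathway, had log2 fold changes of 0.0040 and 0.16, and Ebp, the isomerase before them, -0.05. Lss, which closes the ring, Nsdhl, the dehydrogenase that partners Hsd17b7, and Tm7sf2, a sterol reductase, had 0.07, -0.06 and 0.22.

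**Figure D2:**
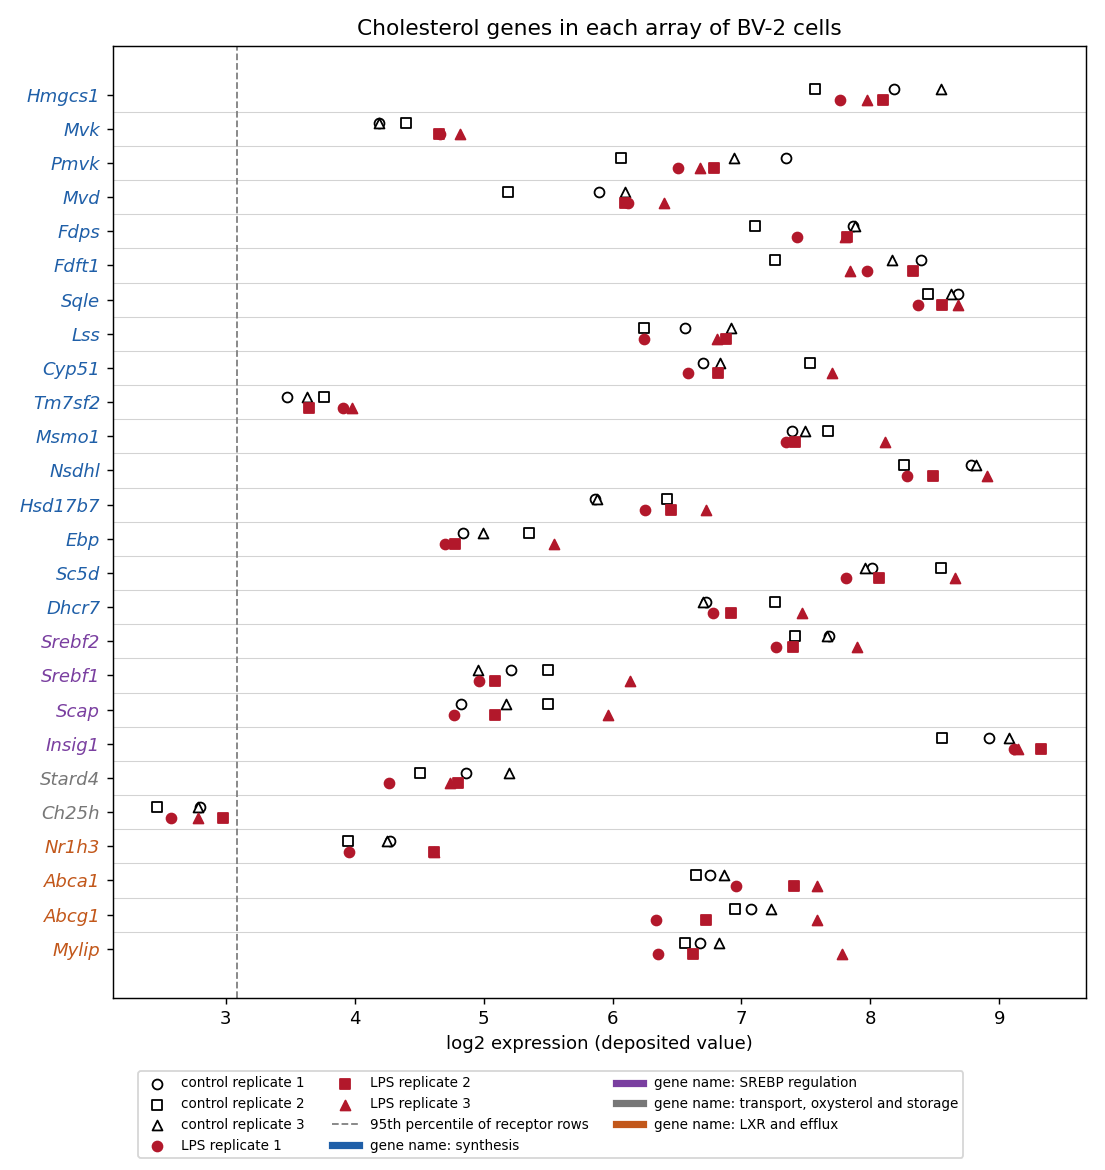
Deposited log2 expression of the 26 genes in each array (open symbols, control; filled symbols, LPS; circle, square and triangle for replicates 1, 2 and 3), with gene names coloured by role. The dashed line is the 95th percentile of receptor rows, 3.08, and Ch25h is the gene to its left; the control squares and LPS triangles lie furthest from their groups in many genes.

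The 4 genes that control synthesis had log2 fold changes between -0.07 and 0.34, and 0 of them passed. Insig1, the sterol-sensing anchor of SCAP and itself an SREBP target, had levels of 8.92, 8.56 and 9.07 in the controls and 9.11, 9.32 and 9.15 with LPS. Its lowest LPS value exceeded its highest control value by a small margin, as in the 14% of rows with a mean above 4 given above, and the log2 fold change was 0.34 (SE 0.18, 95% interval -0.08 to 0.76, limma adjusted p = 0.893). Without control replicate 2 and LPS replicate 3 it was 0.22. Srebf2, the factor that chiefly drives cholesterol synthesis, had levels of 7.68, 7.42 and 7.66 in the controls and 7.27, 7.40 and 7.89 with LPS, at a log2 fold change of -0.07 (SE 0.20). Srebf1, which drives fatty acid synthesis and is also an LXR target, had 5.21, 5.50 and 4.95 in the controls and 4.96, 5.09 and 6.13 with LPS. LPS replicate 3 alone lay above the controls, and the log2 fold change of 0.17 (SE 0.33) became -0.06 without that array and control replicate 2. Scap had a log2 fold change of 0.11 on its brighter row, again with LPS replicate 3 as the highest array at 5.96, and 0.04 on its dimmer row.

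Transport and oxysterol genes gave 2 rows. Ch25h, the hydroxylase that makes the oxysterol 25-hydroxycholesterol and is known as an interferon-induced gene in macrophages, had levels of 2.80, 2.47 and 2.78 in the controls and 2.57, 2.98 and 2.78 with LPS. All 6 values and the mean of its second row lay below the guide to background of 3.08, so its expression was not detectable above that guide in either group. In the same LPS arrays, all 14 type I interferon-stimulated genes with a row had log2 fold changes above 0, with a median of 3.07. Of these, 5 were called higher (limma adjusted p under 0.05), where 0.193% of all rows were. Without control replicate 2 and LPS replicate 3, 10 were called higher, beside 152 of all 41345 rows. Of the 5, Rsad2 rose most, from 4.47 ± 0.15 to 9.84 ± 0.45 (SD, n = 3; log2 fold change 5.36, limma adjusted p = 0.00123). Stard4, a carrier that moves cholesterol between membranes, had levels of 4.86, 4.51 and 5.20 in the controls and 4.27, 4.80 and 4.74 with LPS. Its groups overlapped, and its log2 fold change of -0.25 (SE 0.23) ran from -0.08 without control replicate 3 or, at -0.09, LPS replicate 1 to -0.43 without control replicate 2, and was -0.50 without control replicate 2 and LPS replicate 3.

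Of the 4 LXR and efflux genes, 3 had log2 fold changes above 0 and 1 below. The 95% intervals, which are not adjusted for the number of genes, spanned 0 for all but Abca1. Abca1 did not pass either, and without control replicate 2 and LPS replicate 3 its unadjusted p was 0.134 (limma). The test therefore settled no direction among the 4 genes. Abca1, which loads cholesterol onto apolipoproteins at the cell surface, had levels of 6.75, 6.64 and 6.87 in the controls and 6.96, 7.41 and 7.59 with LPS. All LPS values lay above all control values, with LPS replicate 1 only just so, at a log2 fold change of 0.56 (SE 0.19, 95% interval 0.10 to 1.03) or 1.48-fold that did not pass over all rows (limma adjusted p = 0.644). It was 0.37 after quantile normalization and 0.37 without control replicate 2 and LPS replicate 3 (adjusted p = 0.622). Abcg1, the partner exporter that serves high-density lipoprotein, had 7.08, 6.95 and 7.23 in the controls and 6.34, 6.72 and 7.59 with LPS. Its LPS arrays lay on both sides of the controls, at a log2 fold change of -0.20 (SE 0.32). Without control replicate 2 and LPS replicate 3, Abcg1 had -0.62 (SE 0.20, unadjusted p = 0.0246, limma adjusted p = 0.339).

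Mylip, the ubiquitin ligase IDOL through which LXR lowers lipoprotein uptake, had levels of 6.68, 6.56 and 6.83 in the controls and 6.35, 6.62 and 7.78 with LPS. As in Abcg1, LPS replicate 3 was above and LPS replicate 1 below every control, and the log2 fold change was 0.23 (SE 0.36), or -0.27 without control replicate 2 and LPS replicate 3. Nr1h3, which codes for LXR alpha, had 4.28, 3.95 and 4.25 in the controls and 3.96, 4.61 and 4.61 with LPS, a log2 fold change of 0.24 (limma adjusted p = 0.996, SE 0.22). It was 0.13 when control replicate 2, or either of LPS replicates 2 and 3, was left out, 0.45 when LPS replicate 1 was, and was 0.02 without control replicate 2 and LPS replicate 3.

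Synthesis and efflux were then set side by side in each array. The median log2 fold change was 0.07 over the 16 synthesis genes and 0.23 over the 4 LXR and efflux genes, and both became negative without control replicate 2 and LPS replicate 3, at -0.10 and -0.12. Each gene was expressed as its deviation from its own mean over the 6 arrays, and the median deviation of the efflux genes was subtracted from that of the synthesis genes. This difference was -0.06, 0.19 and 0.01 in control replicates 1 to 3 and 0.17, -0.05 and -0.25 in LPS replicates 1 to 3. The group means of 0.05 ± 0.12 and -0.04 ± 0.21 (SD, n = 3) differed by less than either spread. Within the LPS group both sets moved together, lowest in replicate 1 (-0.21 for synthesis, -0.38 for efflux) and highest in replicate 3 (0.33 and 0.58). Rows with a mean above 4 had medians of -0.07 and 0.16 in these arrays.

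**Figure D3:**
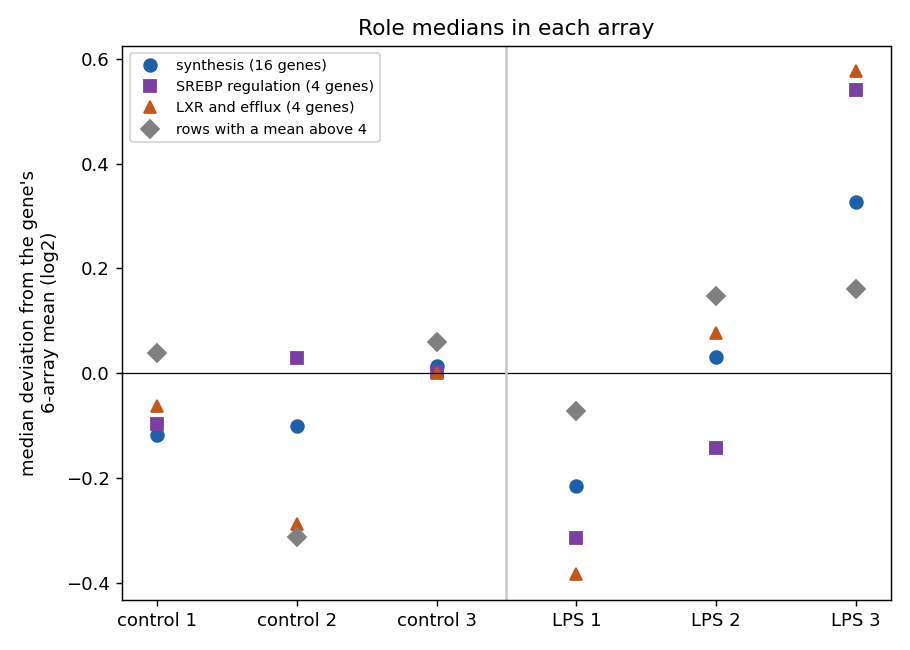
Median deviation from each gene's 6-array mean, in log2 units, for synthesis, SREBP regulation and LXR and efflux genes and for all rows with a mean above 4, in each array. The groups overlap for every set shown, and LPS replicate 3 is the highest array for the 3 gene sets (0.33, 0.54 and 0.58).

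The deviating array of each group was also compared between early and late synthesis genes. Control replicate 2 was set against the mean of the other controls, and LPS replicate 3 against the mean of the other LPS arrays. In control replicate 2, 5 of 6 genes up to squalene were lower, with a median of -0.80, whereas 7 of 10 genes from squalene on were higher, with a median of 0.33. This division at squalene was chosen after the values were seen. Fdft1 at -1.02 and Pmvk at -1.08 were the lowest and Cyp51 at 0.76 the highest. In LPS replicate 3 the genes from squalene on had a median of 0.57, with 9 of 10 highest in that array, and those up to squalene 0.10. Rows with a mean above 4 had medians of -0.35 and 0.14 in these 2 arrays. Of those rows, 73.3% were lower in control replicate 2 and 48.4% were highest of the LPS arrays in LPS replicate 3. The 5 of 6 early genes that were lower (83.3%) lie near the first share, and 30% of the late genes were lower. Across the 26 genes both deviations had a Pearson's r of 0.634 and a Spearman's rho of 0.659, and across the 14064 rows with a mean above 4 an r of 0.385 and a rho of 0.399. Genes share these arrays and are not independent, so the coefficients are descriptions. All 14 type I interferon-stimulated genes with a row were also highest in LPS replicate 3 among the LPS arrays, with a median of 1.48 above the mean of the other LPS arrays. The part of the interferon response, RNA quality or array handling in this pattern was not tested.

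**Figure D4:**
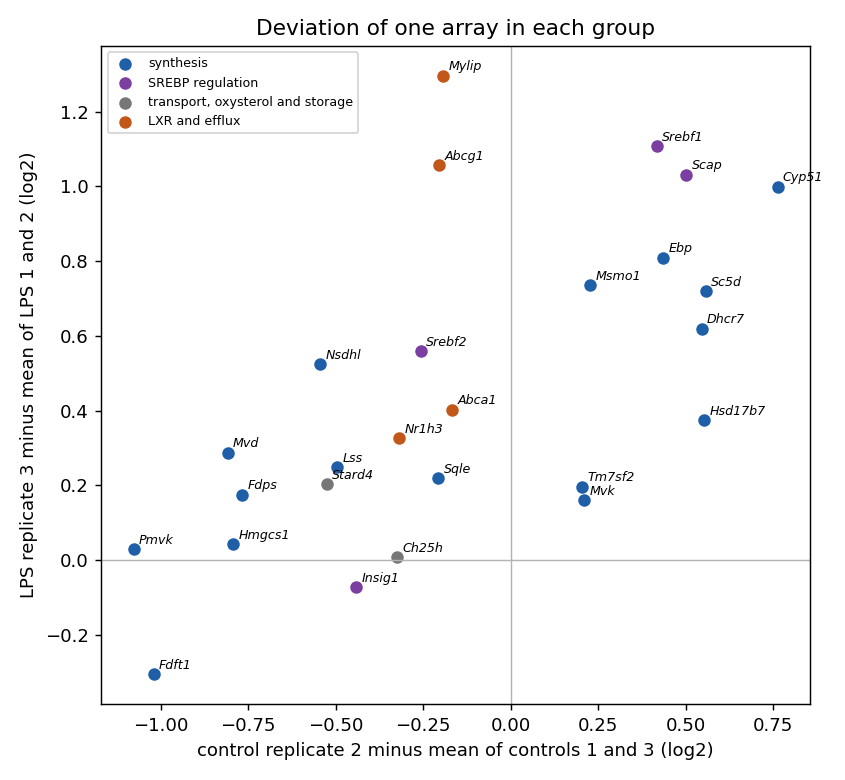
For each of the 26 genes, the log2 deviation of control replicate 2 from the mean of control replicates 1 and 3 (horizontal) and of LPS replicate 3 from the mean of LPS replicates 1 and 2 (vertical), coloured by role. Early synthesis genes such as Pmvk and Fdft1 lie to the left and late ones such as Cyp51 and Sc5d at the upper right; Mylip and Abcg1 are high in LPS replicate 3 only.

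Other genes of cholesterol and SREBP-linked lipid metabolism, 53 with a row in 6 lists, gave 0 calls in either direction (limma), with 7 higher and 4 lower at an unadjusted p under 0.05. These are 13.2% and 7.55% of the 53, against 4.98% and 1.4% of all rows. For rows with a mean above 4, where 42 of the 53 lie, the shares were 10.8% and 1.44%. The rest of the 53, which include some of the 4 lower genes, lay below the guide to background and outside that range. Without control replicate 2 and LPS replicate 3, 1 was called higher, Me1, and 1 lower, Gpr183, beside 152 and 67 of all 41345 rows. In that setting 11 of the 53 log2 fold changes turned sign. Values without these arrays are given below as values without both arrays. Of 9 further genes of synthesis and uptake 0 passed, and the median log2 fold change was 0.08, also without both arrays. The mitochondrial thiolase Acat1 had -0.46 and the sterol reductase Lbr -0.05, and without both arrays -0.78 and 0.07. Of 12 genes of fatty acid synthesis 0 passed, with a median of -0.01, and the elongase Elovl5 and the desaturase Fads1 had -0.14 and 0.04. Among 11 further LXR targets and apolipoproteins 0 passed, and 3 were above 0 and 8 below. Their log2 fold changes ran from -0.60 to 0.87, with a median of -0.20. Without both arrays the median was -0.52, and 4 were above 0. Of the 11 genes, 6 had a mean above the guide to background. The gene that gave the median of -0.52 lay below that guide, so this median bounds no change. The lipoprotein lipase Lpl had levels of 10.30, 10.88 and 10.42 in the controls and 9.51, 9.65 and 10.77 with LPS (log2 fold change -0.56, SE 0.36), and the phospholipid enzyme Lpcat3 had 0.18. Without both arrays these were -0.78 and 0.09.

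Of 11 genes of lysosomal release and intracellular transport 0 passed, while 10 had log2 fold changes above 0, with a median of 0.44. Without both arrays 8 were above 0, with a median of 0.15. Control replicate 2 was below the mean of the other controls in 10 of the 11, and 68.6% of rows with a mean above 4, as all 11 genes are, had a log2 fold change above 0. The lysosomal acid lipase Lipa, which frees cholesterol from its esters, had 9.60, 10.03 and 9.57 in the controls and 9.86, 10.00 and 10.72 with LPS, and the sterol-binding lysosomal protein Npc2 had a log2 fold change of 0.23, or -0.08 without both arrays. Of 5 genes of oxysterol metabolism and sensing and 5 LXR partners with a row 0 passed. The sterol hydroxylase Cyp27a1 had a log2 fold change of -0.40, and the coactivators Ncoa3 and Ncoa1 had 0.05 and 0.11. Without both arrays Cyp27a1 had -0.65, and the coactivators turned to -0.20 and -0.16.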

How the data were processed

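Values were log2 expression per transcript cluster as deposited by the authors, and came from the program Affymetrix Expression Console, as the submitters' processing notes name it. Its version, background correction and normalization are not given in the sources used here. The log2 scale was read from the deposited values, which ran from 0.84 to 12.0. Rows were named from platform annotation: 23521 had 1 symbol, 1814 several and 16010 none, and 23328 of the first matched RefSeq by gene identifier.

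LPS was compared with control with limma (version 3.58.1, R 4.3.3; eBayes after lmFit, no trend, no further normalization or filter) over 41345 rows, with Benjamini-Hochberg adjustment and calls at adjusted p under 0.05. The script was tested on simulated data. SD is over 3 arrays, SE is moderated. The number of arrays limits precision. The genes, lists and roles were chosen with earlier results of these data known. Named were all genes with a row, of each further list up to 4 called genes or else the 2 of highest mean, and Acod1 and Il1b. Alternatives covered scaling, row filters, variance models, array weights, a replicate block and left-out arrays.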

Additional observations from a re-analysis of the deposited data

How the results depend on the processing

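No alternative called any of the 26 genes: the count was 0 higher and 0 lower under each of the 17, with smallest adjusted p-values between 0.254 (array weights) and 1.00 (without LPS replicate 2) in limma or, for one, in unmoderated statistics. Rows called higher, 80 as reported, numbered 132 with array weights, 124 among rows with a mean above 4, 7 with the replicate block, 1 with unmoderated statistics and 152 without control replicate 2 and LPS replicate 3, where 67 were lower against 0 as reported. With 1 array left out they ran from 15 to 76 (control replicates 1 to 3 left out gave 15, 53 and 22, LPS replicates 1 to 3 gave 27, 17 and 76), and rows called lower ran from 0 to 14, with 14 when control replicate 2 was left out and 6 for LPS replicate 3. With 1 array left out, the median log2 fold change of the SREBP genes ran from -0.22 to 0.37, that of the synthesis genes from -0.083 to 0.19, that of the LXR and efflux genes from -0.037 to 0.48 and that of the transport genes from -0.22 to 0.055, so each median took both signs.

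Of 440 log2 fold changes under alternatives, 53 in 18 genes had the opposite sign, all of them uncalled. After quantile normalization these were Cyp51 (-0.20), Dhcr7 (-0.046), Fdft1 (-0.075), Fdps (-0.13), Lss (-0.13), Msmo1 (-0.094), Sc5d (-0.17), Scap (-0.073) and Srebf1 (-0.017). Median centring turned Sc5d (-0.0033), and array weights Fdft1 (-0.027) and Fdps (-0.055). Without control replicate 2 and LPS replicate 3 they were Ch25h (-0.017), Cyp51 (-0.070), Fdft1 (-0.13), Fdps (-0.25), Lss (-0.18), Msmo1 (-0.065), Mylip (-0.27), Sc5d (-0.050), Scap (-0.067) and Srebf1 (-0.060). With 1 array left out, log2 fold changes ran from -0.49 to 0.15 for Pmvk, -0.32 to 0.26 for Cyp51, -0.24 to 0.075 for Nsdhl, -0.24 to 0.19 for Sc5d, -0.23 to 0.36 for Scap, -0.19 to 0.20 for Fdps and -0.23 to 0.33 for Fdft1. The ranges were -0.10 to 0.27 for Lss, -0.32 to 0.10 for Ebp, -0.015 to 0.20 for Ch25h, -0.42 to 0.065 for Hmgcs1, -0.12 to 0.034 for Sqle, -0.25 to 0.059 for Srebf2 and -0.55 to 0.071 for Abcg1. They were -0.14 to 0.24 for Msmo1, -0.045 to 0.34 for Dhcr7, -0.20 to 0.39 for Srebf1 and -0.20 to 0.51 for Mylip. The cause was not tested. The remaining 8 genes, Mvk, Abca1 and Insig1 among them, kept their sign under every alternative run, except that Tm7sf2, like Ch25h, was not among the rows with a mean above 4. Their sizes still moved: with 1 array left out, log2 fold changes ran from 0.13 to 0.45 for Nr1h3, -0.43 to -0.082 for Stard4, 0.21 to 0.66 for Mvd, 0.20 to 0.45 for Insig1, 0.29 to 0.60 for Hsd17b7, 0.15 to 0.32 for Tm7sf2, 0.43 to 0.74 for Abca1 and 0.40 to 0.52 for Mvk.

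Equal replicate numbers did not pair the arrays. Deviations from the group means correlated across rows by 0.07, -0.26 and -0.22 for numbers 1, 2 and 3. Between unequal numbers the correlations ran from -0.14 to 0.27, highest for control replicate 2 with LPS replicate 3. With the replicate block, the smallest adjusted p of the 26 genes was 0.870. Signals near background, as for Ch25h and Tm7sf2, limit what could be seen.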

Other observations

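Beyond the 26 genes, 4 genes of the further pathway lists are described here, named after their values were seen. Gpr183, the receptor through which immune cells migrate toward an oxysterol that Ch25h helps to make, had log2 levels of 7.36, 6.61 and 7.34 in control replicates 1 to 3 and 4.50, 4.52 and 6.29 in LPS replicates 1 to 3. All LPS values lay below all control values (log2 fold change -2.00, SE 0.51, limma adjusted p = 0.404), and without control replicate 2 and LPS replicate 3 the log2 fold change was -2.84 (adjusted p = 0.00677). Me1, the malic enzyme that supplies NADPH for lipid synthesis, had 5.41, 6.34 and 5.73 in the controls and 7.36, 7.46 and 7.81 with LPS. Its log2 fold change was 1.72 (SE 0.26, limma adjusted p = 0.116), or 1.84 without the same arrays (adjusted p = 0.0315). Neither gene passed with all arrays. The arrays were left out for their deviation in these same data, so both adjusted p-values without them can be too small. In that setting 152 of all rows were called higher and 67 lower, beside 80 and 0 with all arrays.

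Acss2, which makes acetyl-CoA from acetate, had 4.85, 4.22 and 4.87 in the controls and 5.63, 6.57 and 7.65 with LPS (log2 fold change 1.97, SE 0.50, limma adjusted p = 0.396). Insig2, the second SCAP anchor, had 5.78, 5.55 and 5.82 in the controls and 6.29, 6.56 and 6.90 with LPS, with a difference of 0.87 on the log2 scale (limma adjusted p = 0.310, SE 0.19) beside 0.34 for Insig1. Without control replicate 2 and LPS replicate 3 the log2 fold changes were 1.24 for Acss2 and 0.63 for Insig2, and neither passed (limma adjusted p = 0.230 and 0.274).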
